A study of Rattus norvegicus with 12 samples.

Results

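The immediate early response genes followed here are Fos, Fosb, Jun, Junb, Egr1, Atf3, Nr4a1, Dusp1, Klf4 and Klf6, and they were chosen by name as 10 genes. All 16 probe sets annotated with these symbols alone were taken, out of 31099 probe sets on the array, on which 14217 genes have such a probe set. A probe set was tested where its highest pool mean reached the detection level, a log2 signal of 5.75. The level is the 40th percentile of the deposited values, since the arrays' own background was not analysed here. That left 13 probe sets of 8 genes among the 19359 tested. The single probe sets of Fosb and Atf3 and the Fos probe set 1371283_at stayed below the level and are described by their array values alone.

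Kidneys came from 4 rat strains at 30 days of age, all fed the 5LOD diet. SD is the outbred Sprague Dawley stock, and PCK is the strain with a spontaneous Pkhd1 mutation that models recessive polycystic kidney disease. FHH is the Fawn Hooded Hypertensive inbred strain, and FHH.Pkhd1 is the congenic FHH.PCK-(D9Rat35-D9Rat70)/Mcwi, in which a PCK segment lies on the FHH background. For each strain the RNA of 6 animals went into 1 pool, which was measured on 3 arrays, 12 arrays in all. The labels do not state the animals' sex. The SDs, SEs and p-values below thus rest on repeat arrays of the same pooled RNA, and animal-to-animal variation was not measured.

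Immediate early genes are transcribed within minutes of a signal, with no need for new protein, from messengers that decay quickly. Mitogen-activated protein (MAP) kinases switch them on through factors already in the nucleus. These include serum response factor, which reads the CArG box and acts with ETS partners, and CREB, which reads the cyclic AMP response element. Fos and Jun proteins then pair as the AP-1 transcription factor, while Dusp1 dephosphorylates the MAP kinases and so ends the signal. In kidney these genes are known to respond to ischaemia and growth factors, and in many tissues to handling and dissociation.

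RefSeq promoter windows of build GRCr8 matched 7 of the 10 genes, Fosb, Klf4, Nr4a1, Dusp1, Klf6, Egr1 and Junb. The 250 bases before the annotated start are shown for Nr4a1, Dusp1 and Klf6, genes of different roles whose signal was highest in PCK in every probe set. They are chr7:134259888-134260137 (plus strand), chr10:17184603-17184852 (plus strand) and chr17:69458479-69458728 (minus strand). Capitals mark TGACGTCA (the cyclic AMP response element), TGACG (the first 5 bases of that element, so each full element is also a match), TGCGTCA (which holds TGACG on its other strand) and the CArG box, each searched on both strands.
Nr4a1: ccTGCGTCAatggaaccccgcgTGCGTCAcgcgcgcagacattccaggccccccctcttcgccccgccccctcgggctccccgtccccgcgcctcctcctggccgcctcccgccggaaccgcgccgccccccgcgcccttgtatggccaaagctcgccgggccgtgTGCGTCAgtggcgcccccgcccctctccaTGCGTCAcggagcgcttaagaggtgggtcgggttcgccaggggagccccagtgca
Dusp1: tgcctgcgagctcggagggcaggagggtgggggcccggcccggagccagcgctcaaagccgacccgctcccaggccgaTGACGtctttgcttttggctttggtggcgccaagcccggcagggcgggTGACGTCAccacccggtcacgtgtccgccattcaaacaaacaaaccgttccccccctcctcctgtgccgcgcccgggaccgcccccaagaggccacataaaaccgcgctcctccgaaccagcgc
Klf6: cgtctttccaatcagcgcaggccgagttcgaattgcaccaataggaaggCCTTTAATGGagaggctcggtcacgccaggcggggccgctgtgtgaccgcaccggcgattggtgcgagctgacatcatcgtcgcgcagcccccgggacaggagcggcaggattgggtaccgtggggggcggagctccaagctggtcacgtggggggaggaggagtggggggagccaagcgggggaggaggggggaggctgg

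Nr4a1 held TGCGTCA at 4 places, a word found in 1.66% of all 33469 windows of that length. Dusp1 held TGACGTCA once, as did 1.59% of windows, and a further TGACG. The CArG box was present once in Klf6 and at 2 places in Egr1, against 1.5% of windows. TGACG occurred in Nr4a1, Dusp1, Egr1 and Junb, 4 of 7, and in 18.2% of windows. The AP-1 word TGACTCA was in none of the 7 windows and in 4.05% of all. A match is a run of letters in the window, and these matches were not set against the expression values by any test.

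Kidney markers were at high signal in every pool, with Slc34a1, the proximal tubule phosphate transporter, at 13.49 to 13.63 and Umod, the uromodulin of the thick ascending limb, at 13.40 to 13.69 (log2 pool means). Arrays of a pool correlated at 0.9973 to 0.9985 and arrays of different pools at 0.9862 to 0.9960. Markers of other tissues differed between pools. Beta-actin signal at its 3' probe set less that at its 5' probe set, a control for RNA integrity and labelling, was 1.33 in PCK, 1.10 in SD, 1.39 in FHH and 1.20 in FHH.Pkhd1 (log2 means of 3 arrays, SD 0.02 to 0.03).

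No pool had the highest signal for all of the genes. PCK had the highest mean of 8 of the 13 tested probe sets, those of Junb, Klf4, Klf6, Nr4a1 and Dusp1, while it was highest for 21.3% of all tested probe sets. FHH had the lowest mean of 8 of 13, against 15.7% of all. Jun was highest in FHH.Pkhd1 or SD, depending on the probe set, and Egr1 and Fos were highest in FHH. Most differences were small. The range of pool means had a median of 0.40 over the 13 probe sets and 0.25 over all tested, with a median within-pool SD of 0.08 and 0.07. Several genes have more than 1 probe set, so these counts are not of independent measurements.

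**Figure D1:**
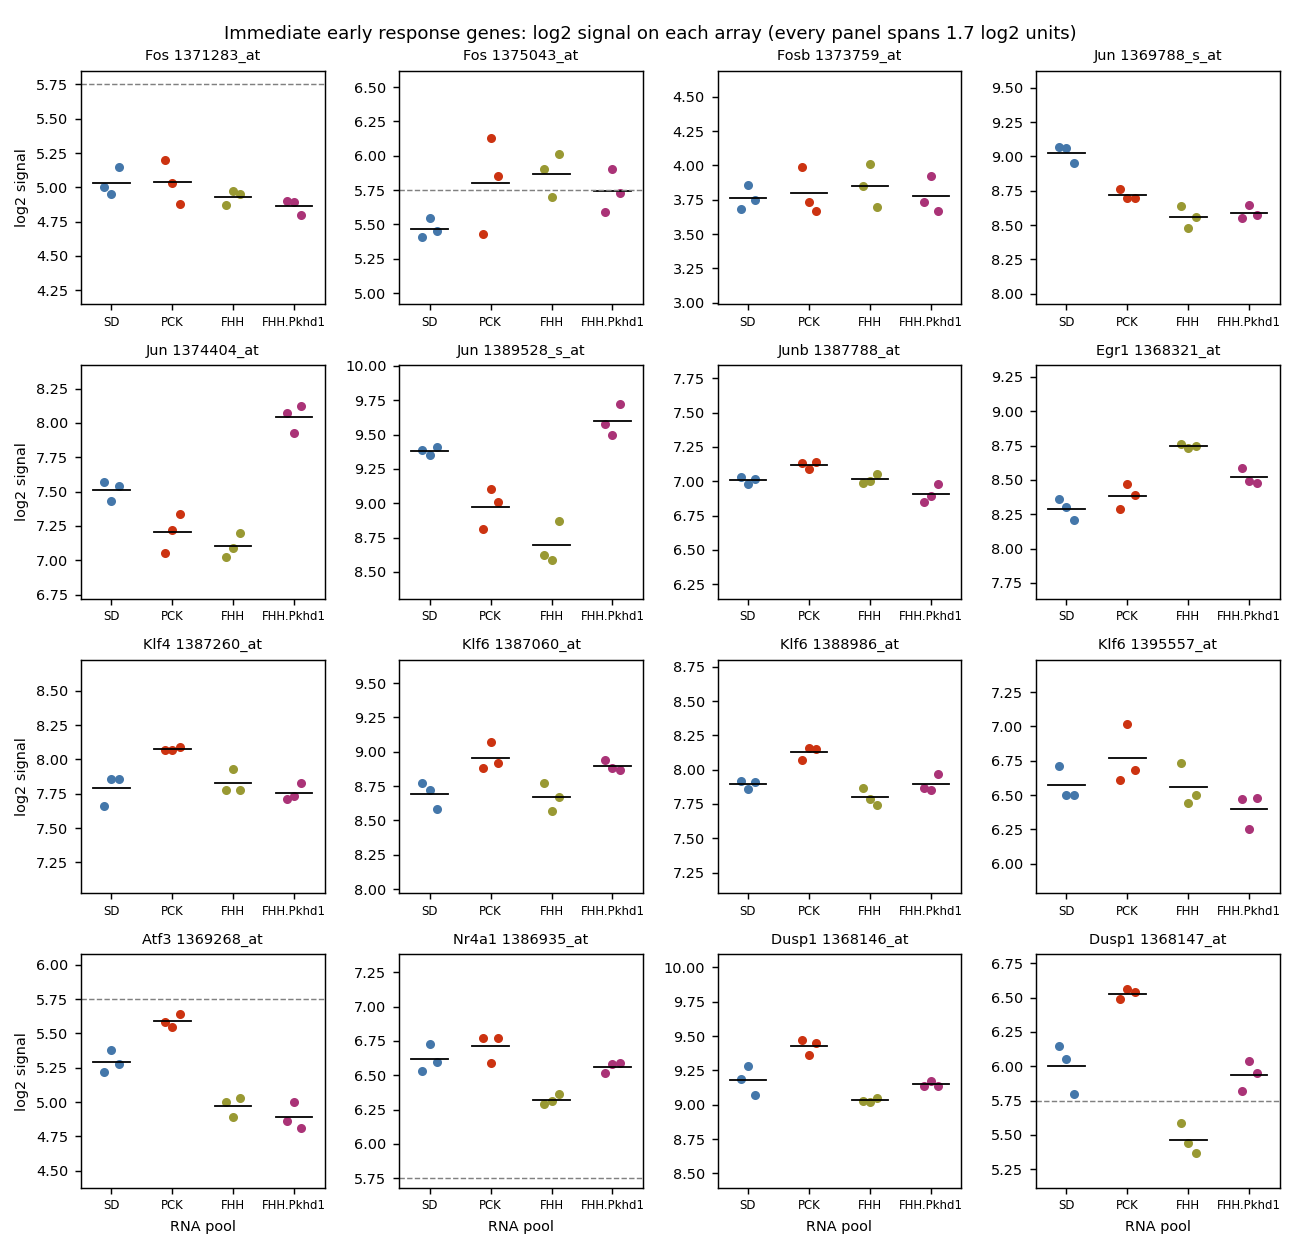
Log2 signal of all 16 probe sets (vertical axis) in the 4 RNA pools (horizontal axis), with a point for each array, a bar for the mean of 3 arrays and a dashed line at the detection level of 5.75. Every panel spans the same range, so the widest spreads between pools, in the Dusp1 probe set 1368147_at and the Jun probe sets 1374404_at and 1389528_s_at, can be compared by eye with the narrow ones of Junb and Fosb.

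Fos encodes the founding Fos subunit of AP-1. Its probe set 1375043_at read 5.43, 6.13 and 5.85 on the PCK arrays, 5.41, 5.55 and 5.45 on the SD arrays, 5.90, 5.70 and 6.01 on the FHH arrays, and 5.59, 5.90 and 5.73 on the FHH.Pkhd1 arrays. SD lay below FHH and FHH.Pkhd1 on every array, and PCK overlapped all 3 other pools. Only 5 of 12 arrays reached the detection level, and the means of SD (5.47) and FHH.Pkhd1 (5.74) were below it, so the differences against them rest on signal near or below that level. No neighbours in the order FHH, PCK, FHH.Pkhd1, SD differed at adjusted p under 0.05. The largest difference, SD minus FHH, was -0.40 ± 0.15 (SE, limma adjusted p = 0.0506). In PCK minus SD the difference was 0.33 ± 0.15 (limma adjusted p = 0.103). The SD between PCK arrays, 0.35, was the widest of any pool among the 16 probe sets. The other Fos probe set, 1371283_at, ran from 4.80 to 5.20 over the 12 arrays, below the detection level throughout. Fosb, a Fos relative found in long-lasting AP-1 complexes, ran from 3.67 to 4.01 and overlapped between all pools. With so low a signal, a difference in Fosb was not measurable here.

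Jun, the Jun subunit of AP-1 and the direct target of the JNK kinases, was measured by 3 probe sets that did not agree. In probe set 1374404_at the arrays read 8.07, 7.93 and 8.12 in FHH.Pkhd1 and 7.02, 7.09 and 7.20 in FHH. SD arrays read 7.57, 7.43 and 7.54 and PCK arrays 7.05, 7.22 and 7.34. FHH.Pkhd1 stood above the other pools with no overlap, SD came next, and PCK and FHH overlapped at the bottom. FHH.Pkhd1 was 1.92-fold above FHH (log2 difference 0.94 ± 0.08, SE, limma adjusted p = 7.15e-06), a call at the rule used throughout, adjusted p under 0.05 and at least 1.5-fold.

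Probe set 1389528_s_at gave the same order of pool means. Its arrays read 9.58, 9.50 and 9.72 in FHH.Pkhd1, 9.39, 9.35 and 9.41 in SD, 8.81, 9.10 and 9.01 in PCK, and 8.62, 8.59 and 8.87 in FHH. FHH.Pkhd1 rose 1.87-fold over FHH (0.91 ± 0.09, limma adjusted p = 2.1e-05). FHH.Pkhd1 and SD did not overlap in this probe set but differed by only 0.22 ± 0.09 (limma adjusted p = 0.058).

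Probe set 1369788_s_at gave another picture. It read 9.07, 9.06 and 8.95 in SD, 8.76, 8.70 and 8.70 in PCK, 8.64, 8.48 and 8.56 in FHH, and 8.55, 8.65 and 8.57 in FHH.Pkhd1. SD was highest with no overlap, and the FHH and FHH.Pkhd1 arrays lay among each other. FHH.Pkhd1 minus FHH was 0.03 ± 0.05 (95% interval -0.08 to 0.14, limma adjusted p = 0.755), an interval that excludes the 1.5-fold limit of 0.58.

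The gap between 1369788_s_at and the other Jun probe sets left no overlap between arrays in the comparisons that involve FHH.Pkhd1, and overlapped in the rest. Taken within each array, 1374404_at gave a larger FHH.Pkhd1 minus FHH difference than 1369788_s_at by 0.91, and 1389528_s_at by 0.88, and neither overlapped between the pools (SD 0.14 to 0.16, n = 3 arrays, p = 0.1 by a two-sided exact permutation of the arrays). That is the lowest p this number of arrays can give, and over the 48 such comparisons computed the adjusted exact permutation p was 0.218. The pair 1374404_at and 1389528_s_at gave like values in FHH.Pkhd1 minus FHH (within-array gap -0.03, overlapping) and in PCK minus SD (-0.10, overlapping). In the other 4 comparisons their gap left no overlap, at 0.18 in PCK minus FHH, 0.21 in PCK minus FHH.Pkhd1, 0.28 in SD minus FHH and 0.31 in SD minus FHH.Pkhd1 (exact permutation p = 0.1 and adjusted p = 0.218 each). In the comparisons among PCK, SD and FHH, the gaps to 1369788_s_at overlapped between pools, and all 3 kept 1 sign. All were below SD in PCK, at -0.31 ± 0.08, -0.41 ± 0.09 and -0.30 ± 0.05 in the order described (limma adjusted p = 0.00964, 0.00335 and 0.00061), each short of 1.5-fold. All were above FHH in SD, at 0.41 ± 0.08, 0.69 ± 0.09 and 0.46 ± 0.05, of which only the second was called (limma adjusted p = 8.44e-05). Per the platform annotation, 1374404_at and 1389528_s_at were designed from the same expressed sequence tag and 1369788_s_at from the reference messenger. The suffix _s_at marks probe sets whose probes match more than a single transcript. The positions of the probes along Jun were not analysed here.

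**Figure D2:**
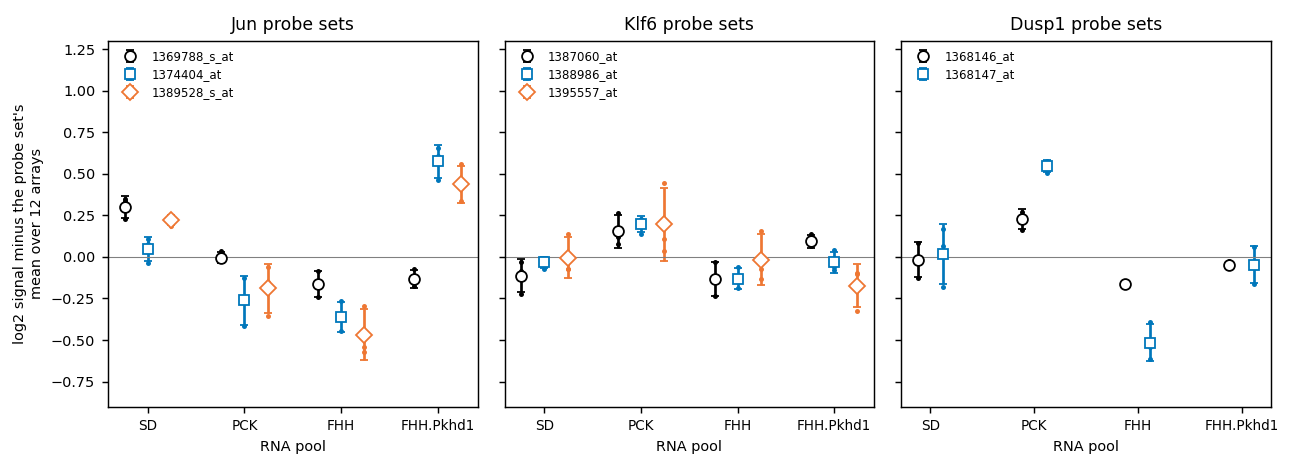
Log2 signal minus the mean of each probe set over 12 arrays (vertical axis) for Jun, Klf6 and Dusp1 in the 4 pools (horizontal axis), with small points for arrays, open symbols for means and bars for the SD of 3 arrays. The Jun probe sets part company in FHH.Pkhd1, where 2 are highest and 1369788_s_at is not, whereas both Dusp1 probe sets are highest in PCK and lowest in FHH, over ranges of 0.40 and 1.06.

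Markers of other tissue differed between these pools. None of the adrenal, red cell and neutrophil sums below had the pool order of Jun 1374404_at and 1389528_s_at. Adrenal steroid genes were higher in FHH.Pkhd1 than in FHH, with 3 of the 3 tested called (Star, Cyp11a1 and Hsd3b1), against 1.9% of all tested probe sets. The log2 of the summed signal of all 4 adrenal markers was 10.07 to 10.19 in FHH.Pkhd1 and 9.13 to 9.15 in FHH. It was 7.34 to 7.44 in SD and 7.26 to 7.38 in PCK. Cyp11b1 was below the detection level in every pool, Star in PCK and SD, and Cyp11a1 in PCK. Red cell markers were highest in SD, with 3 of 3 called against PCK (3.49% of all tested) and against FHH (3.72% of all tested). Their summed signal was 13.52 to 13.54 in SD and 12.59 to 12.84 in the other 3 pools, with Ahsp below the detection level in PCK. Neutrophil markers were at 6.10 to 6.26 in FHH.Pkhd1, summed over 2 genes, and at 4.93 to 5.43 in the other pools. S100a8 was below the detection level throughout, and S100a9 was below it in PCK, SD and FHH. The beta-actin control was lowest in SD and FHH.Pkhd1, the pools in which 1374404_at and 1389528_s_at were highest, and so was the same control for Gapdh (-0.03 in SD, 0.09 in FHH.Pkhd1, 0.14 in PCK and 0.17 in FHH). The mean signal of the poly-A spike controls ran in the reverse order of these Jun probe sets, at 10.01 in FHH.Pkhd1, 10.47 in SD, 10.81 in PCK and 11.11 in FHH (SD 0.02 to 0.10, n = 3 arrays). The part of these in the Jun result was not tested. In whole-kidney RNA, fewer cells of a type and less RNA per cell cannot be told apart.

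Junb, an AP-1 subunit that can hold back Jun, varied little. Its arrays read 7.13, 7.09 and 7.14 in PCK, 7.03, 6.98 and 7.02 in SD, between 6.99 and 7.05 in FHH, and 6.85, 6.89 and 6.98 in FHH.Pkhd1. PCK stood above the others without overlap, and FHH.Pkhd1 met SD at 6.98. PCK minus FHH.Pkhd1 was 0.22 ± 0.04 (limma adjusted p = 0.00104), short of 1.5-fold, and no neighbours in the order differed at adjusted p under 0.05. The mean of Junb was thus lowest in FHH.Pkhd1, the pool in which 2 Jun probe sets were highest and 1369788_s_at was not. A link between Junb and Jun was not tested.

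Egr1, a zinc finger factor switched on through serum response factor, was highest in FHH. The arrays read 8.76, 8.73 and 8.75 in FHH, 8.59, 8.49 and 8.48 in FHH.Pkhd1, 8.29, 8.47 and 8.39 in PCK, and 8.36, 8.30 and 8.21 in SD. FHH did not overlap any other pool, FHH.Pkhd1 did not overlap PCK or SD, and PCK and SD overlapped. SD minus FHH was -0.46 ± 0.05 (limma adjusted p = 4.32e-05) and FHH.Pkhd1 minus FHH was -0.22 ± 0.05 (limma adjusted p = 0.011), neither reaching 1.5-fold. PCK minus SD was 0.10 ± 0.05 with a 95% interval of -0.02 to 0.21 (limma adjusted p = 0.194). The means of the summed signal of 4 adipocyte markers had the same order of pools, but no single marker of the 4 did. Cidea and Plin1 were highest in FHH.Pkhd1, and Ucp1 and Adipoq were higher in SD than in PCK. Of the 4, 3 were called lower in SD than in FHH (Cidea, Ucp1 and Plin1), where 3.72% of all tested probe sets were called in either direction. The summed signal of all 4 was 10.36 to 10.51 in FHH and 10.22 to 10.27 in FHH.Pkhd1. It was 9.13 to 9.23 in PCK and 9.06 to 9.14 in SD, which overlapped. Plin1 was below the detection level in PCK and SD. The summed signal of 4 urothelium markers had the Egr1 order of pools too, with no overlap. It was 8.51 to 8.61 in FHH, 8.41 to 8.43 in FHH.Pkhd1, 8.27 to 8.31 in PCK and 7.86 to 7.95 in SD. Of these, Upk1b and Upk3a each had the order, whereas Upk2 and Krt5 did not, with Krt5 below the detection level in every pool. The part of these adipocyte and urothelium markers in the Egr1 values was not tested. Among the 13, Egr1 was the only tested probe set that was lower in all 3 other pools than in FHH at adjusted p under 0.05.

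Klf4, a zinc finger factor of epithelial differentiation, was set apart in PCK. It read 8.07, 8.07 and 8.09 in PCK, 7.66, 7.86 and 7.86 in SD, 7.78, 7.93 and 7.78 in FHH, and 7.71, 7.73 and 7.83 in FHH.Pkhd1. The PCK arrays were above all 9 others, which overlapped among themselves. PCK minus SD was 0.28 ± 0.06 (limma adjusted p = 0.00384), a 1.22-fold difference.

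Klf6, a zinc finger factor induced after tubule injury, had 3 probe sets, each highest in PCK. Probe set 1388986_at read 8.07, 8.16 and 8.15 in PCK, and 7.74 to 7.97 on the other 9 arrays, with no overlap. Probe set 1387060_at read 8.88, 9.07 and 8.92 in PCK and 8.94, 8.88 and 8.87 in FHH.Pkhd1, which overlapped, against 8.57 to 8.77 in SD and FHH. Probe set 1395557_at was noisier, at 6.61, 7.02 and 6.68 in PCK and 6.25 to 6.73 elsewhere. In PCK minus SD the 3 gave 0.23 ± 0.05, 0.27 ± 0.07 and 0.20 ± 0.11 (limma adjusted p = 0.00262, 0.00847 and 0.208). In FHH.Pkhd1 minus FHH they gave 0.10 ± 0.05, 0.22 ± 0.07 and -0.16 ± 0.11, so only 1387060_at passed adjusted p under 0.05 (limma adjusted p = 0.0319) and the sign was not shared.

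Atf3, a stress-induced relative of CREB, was below the detection level on all 12 arrays but ordered by pool. It read 5.58, 5.55 and 5.64 in PCK, 5.22, 5.38 and 5.28 in SD, 5.00, 4.89 and 5.03 in FHH, and 4.86, 5.00 and 4.81 in FHH.Pkhd1. PCK was above SD and SD above both FHH-background pools with no overlap, while FHH and FHH.Pkhd1 overlapped. The size of these differences is not given, since no array reached the level.

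Nr4a1, an orphan nuclear receptor induced by stress and by peptide hormones, was lowest in FHH. It read 6.29, 6.31 and 6.36 in FHH, 6.52, 6.58 and 6.59 in FHH.Pkhd1, 6.53, 6.73 and 6.60 in SD, and 6.77, 6.59 and 6.77 in PCK. FHH stood below all other arrays, and SD overlapped both PCK and FHH.Pkhd1 (PCK minus SD 0.09 ± 0.06, limma adjusted p = 0.268). FHH.Pkhd1 minus FHH was 0.25 ± 0.06 (limma adjusted p = 0.0124), a difference of 1.19-fold. Nr4a1 and Egr1 were therefore at opposite ends in FHH.

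Dusp1, the MAP kinase phosphatase that closes the early response, had the widest range of pool means. In probe set 1368147_at the arrays read 6.49, 6.56 and 6.54 in PCK, 6.15, 6.05 and 5.80 in SD, 5.82, 6.04 and 5.95 in FHH.Pkhd1, and 5.59, 5.44 and 5.37 in FHH. PCK was above and FHH below every other array, with SD and FHH.Pkhd1 overlapping between them. PCK minus FHH was 1.06 ± 0.09 (limma adjusted p = 1.81e-06), from an FHH mean of 5.47 that is below the detection level. PCK rose 1.51-fold over FHH.Pkhd1 (0.59 ± 0.09, limma adjusted p = 0.000159), a call at the edge of the limit that is lost without PCK replicate 2 (0.58) or FHH.Pkhd1 replicate 1 (0.53). PCK minus SD was 0.53 ± 0.09 (limma adjusted p = 0.000615) and FHH.Pkhd1 minus FHH 0.47 ± 0.09 (limma adjusted p = 0.00272), both under 1.5-fold. The latter difference also starts from that FHH mean below the detection level.

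The brighter Dusp1 probe set, 1368146_at, held the same order at a smaller scale. It read 9.47, 9.36 and 9.45 in PCK, 9.19, 9.28 and 9.07 in SD, 9.14, 9.17 and 9.14 in FHH.Pkhd1, and 9.03, 9.02 and 9.05 in FHH. PCK was again above every other array and FHH below. PCK minus FHH was 0.40 ± 0.05 (limma adjusted p = 7.1e-05) and was not called. PCK minus SD was 0.25 ± 0.05 (limma adjusted p = 0.0025) and FHH.Pkhd1 minus FHH only 0.12 ± 0.05 (limma adjusted p = 0.115). Within arrays, the PCK minus FHH difference was larger in 1368147_at than in 1368146_at by 0.67, with no overlap (p = 0.1 by the same exact permutation test, adjusted p = 0.218).

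**Figure D3:**
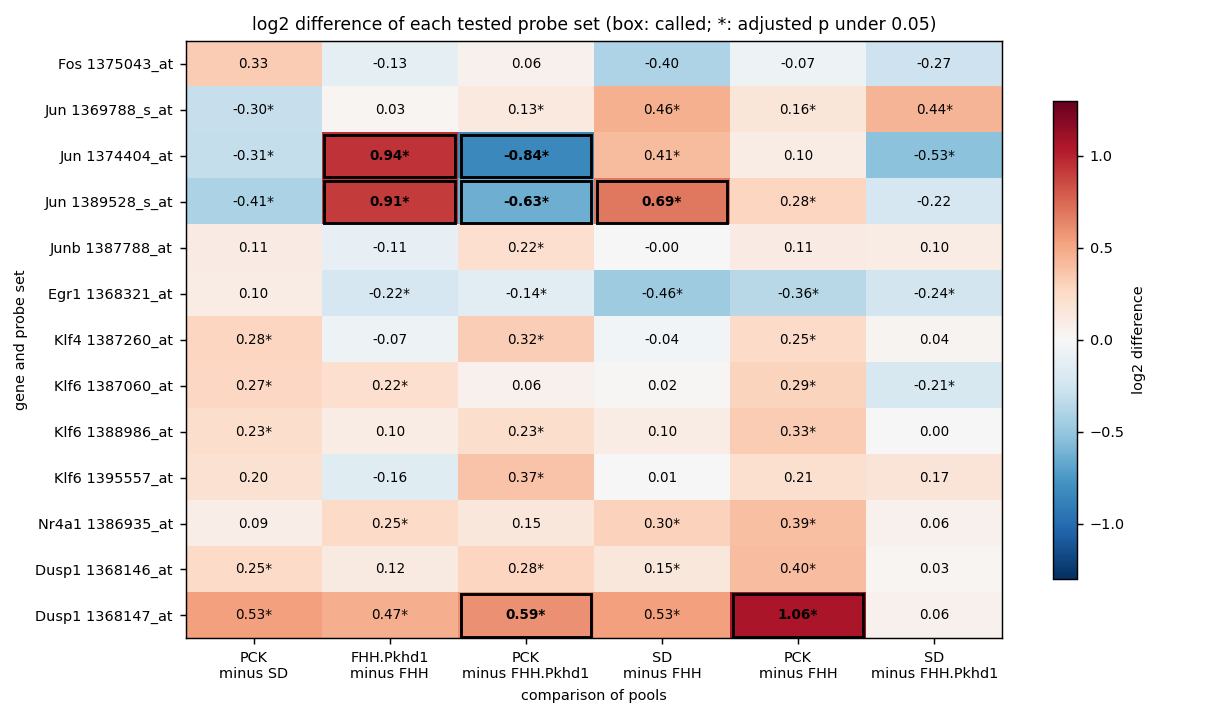
Log2 difference of each of the 13 tested probe sets (rows) in the 6 comparisons of pools (columns), with colour for its sign and size. Boxes mark calls, which belong to Jun and Dusp1, and stars mark limma adjusted p under 0.05, which no cell of Fos carries.

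PCK against SD sets the mutant strain beside the stock it came from. By limma, 0 of 13 probe sets were called, against 3.49% of all tested, with 10 of 13 at an unadjusted p under 0.05 (42.2% of all tested) and 8 at an adjusted p under 0.05. Those 8 are 61.5% of the tested members and compare with 32.5% of all tested. Among them, 5 were higher in PCK (14.6% of all), namely Klf4, both of Dusp1 and 2 of Klf6, and 3 were lower (18% of all), all of Jun. By sign alone, 10 of 13 were higher, against 47.6% of all tested. The members' median difference was 0.20 and that of all tested -0.01. Among 11 tubule injury genes tested, 2 were called, both higher in PCK, where 3.49% of all tested were called in either direction. They were Havcr1, kidney injury molecule 1, at 3.15 ± 0.09 and the chaperone Clu at 1.55 ± 0.05. By sign alone, 8 of the 11 were higher. The list's median was 0.45, and its part in these differences was not tested.

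FHH.Pkhd1 against FHH shows the introduced segment on an otherwise FHH genome. Here 2 of 13 probe sets were called, both of Jun and both higher, against 1.9% of all tested and 0.899% called higher. At adjusted p under 0.05 with no fold limit there were 6 of 13 (46.2%, against 21% of all). The Jun pair, Nr4a1, Klf6 1387060_at and Dusp1 1368147_at, 5 in all, were higher (12.2% of all) and Egr1 was lower (8.79% of all). By sign 8 of 13 were higher, against 55.2%. The median was 0.10 over the members and 0.02 over all tested.

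The difference between these comparisons was itself fitted as an interaction, PCK minus SD less FHH.Pkhd1 minus FHH. The Jun probe sets 1374404_at and 1389528_s_at were called at -1.25 ± 0.11 and -1.32 ± 0.12 (limma adjusted p = 6.21e-06 and 9.13e-06), 2 of 13 against 6.44% of all tested and 3.31% called in that direction. At an adjusted p under 0.05 with no fold limit there were 6 of 13, against 30.1% of all. Jun 1369788_s_at differed in the same direction by -0.33 ± 0.07 (limma adjusted p = 0.00413), short of the limit. Klf4 (0.36 ± 0.09), Egr1 (0.32 ± 0.08) and Junb (0.22 ± 0.06) differed the other way at limma adjusted p = 0.0085, 0.00722 and 0.0136. For Dusp1 1368147_at the interaction was 0.06 ± 0.12 (95% interval -0.21 to 0.33, limma adjusted p = 0.736), so a difference between the comparisons was not detected for it. Nor was one detected for Dusp1 1368146_at (0.13 ± 0.07, limma adjusted p = 0.199).

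**Figure D4:**
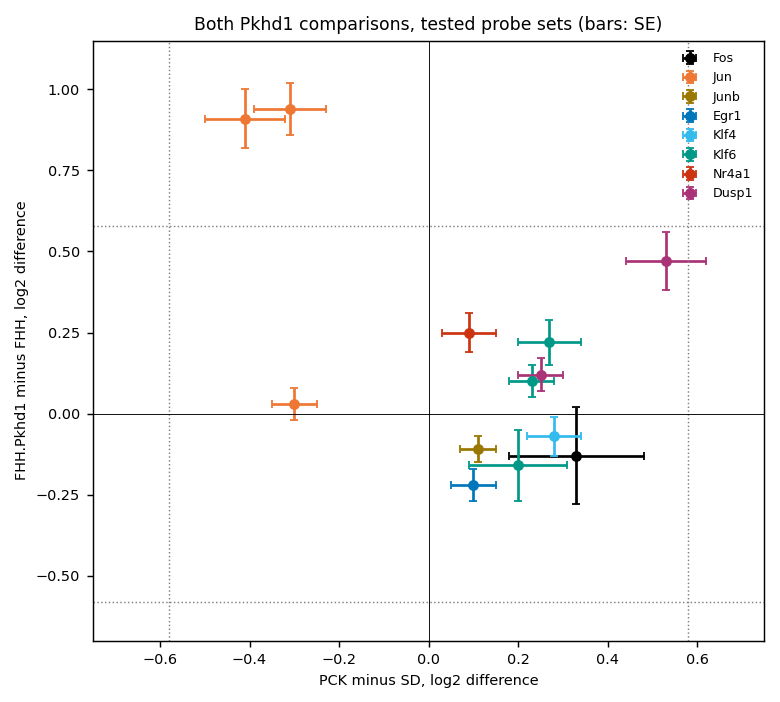
Log2 difference in PCK minus SD (horizontal axis) and in FHH.Pkhd1 minus FHH (vertical axis), which share no array, for the 13 tested probe sets, with bars for the SE and dotted lines at 1.5-fold. Dusp1 1368147_at lies at 0.53 and 0.47, and the brighter Dusp1 1368146_at at 0.25 and 0.12. On the first axis 2 Jun probe sets lie at -0.31 and -0.41, and on the second at 0.94 and 0.91.

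PCK and FHH.Pkhd1, which carry the mutant segment on different backgrounds, differed in 3 of 13 probe sets, Jun 1374404_at (-0.84 ± 0.08) and 1389528_s_at (-0.63 ± 0.09) lower and Dusp1 1368147_at higher in PCK, against 6.91% of all tested (3.11% higher, 3.79% lower). With no fold limit 10 of 13 passed, against 51.7%. The call of Jun 1389528_s_at was lost without PCK replicate 1 (-0.54) or FHH.Pkhd1 replicate 3 (-0.57) and with quantile normalization (-0.57). SD and FHH, the strains without the segment, differed in 1 of 13, Jun 1389528_s_at, against 3.72% of all tested and 1.81% called higher, and in 7 of 13 with no fold limit, against 34.9%. Across mutation and background together, PCK minus FHH gave 1 of 13, Dusp1 1368147_at, against 4.57% of all tested and 2.08% called higher. With no fold limit 9 of 13 passed there, against 39.9%, and 11 of 13 were higher by sign, against 41.1%. For SD minus FHH.Pkhd1 limma called 0 of 13, against 6.16% of all tested, with 6 at an unadjusted p under 0.05 (46.2%, against 54.3% of all tested) and 4 (30.8%) at an adjusted p under 0.05, against 46.9%. These comparisons share pools with those above and are not separate evidence.

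A wider list of 44 early response genes, other than the 10, was read through the probe set of highest mean of each gene, with 39 tested. It went no single way in PCK. Against SD, 1 was called higher, the transcription factor Cebpd (0.62 ± 0.05), and 3 were called lower. Those 3 were the matricellular protein Ccn1 (-1.21 ± 0.11), the prostaglandin synthase Ptgs2 (-0.87 ± 0.05) and the growth arrest gene Gadd45g (-0.78 ± 0.07). All had limma adjusted p of at most 4.16e-06. Of all tested probe sets 3.49% were called. In the list 22 of 39 had an unadjusted limma p under 0.05, against 42.2% of all tested. The list's median was -0.02, beside -0.01 for all tested probe sets, and 17 of 39 were positive. In FHH.Pkhd1 minus FHH limma called 0 of 39, 17 of them at an unadjusted p under 0.05 (33.5% of all tested probe sets), with a median of 0.03 and Cebpd at 0.42 ± 0.05 and the phosphatase Dusp2 at -0.38 ± 0.07 largest.

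Between backgrounds the calls in the same list were again mixed, and the genes said to rise or fall here are calls. In the order below, calls made up 6.91%, 3.72%, 4.57% and 6.16% of all tested probe sets. In PCK minus FHH.Pkhd1 the proto-oncogene Myc rose (0.61 ± 0.06) while Ccn1 (-0.98 ± 0.11), the kinase Sik1 (-0.81 ± 0.06) and Ptgs2 (-0.79 ± 0.05) fell. In SD minus FHH, Gadd45g (0.83 ± 0.07) and the matricellular protein Ccn2 (0.66 ± 0.04) rose. In PCK minus FHH, 3 rose and 3 fell, Cebpd (0.78 ± 0.05) and Ccn2 (0.70 ± 0.04) among the higher and Ptgs2 (-0.81 ± 0.05) and Ccn1 (-0.70 ± 0.11) among the lower. SD minus FHH.Pkhd1 gave 2 higher, Gadd45g (1.03 ± 0.07) and Dusp2 (0.64 ± 0.07), and 1 lower, Sik1 (-0.66 ± 0.06). Ccn1 and Ptgs2 also differed between the Pkhd1 comparisons, with interactions of -1.50 ± 0.15 and -0.84 ± 0.07 (limma adjusted p = 1.74e-05 and 4.67e-06).

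**Figure D5:**
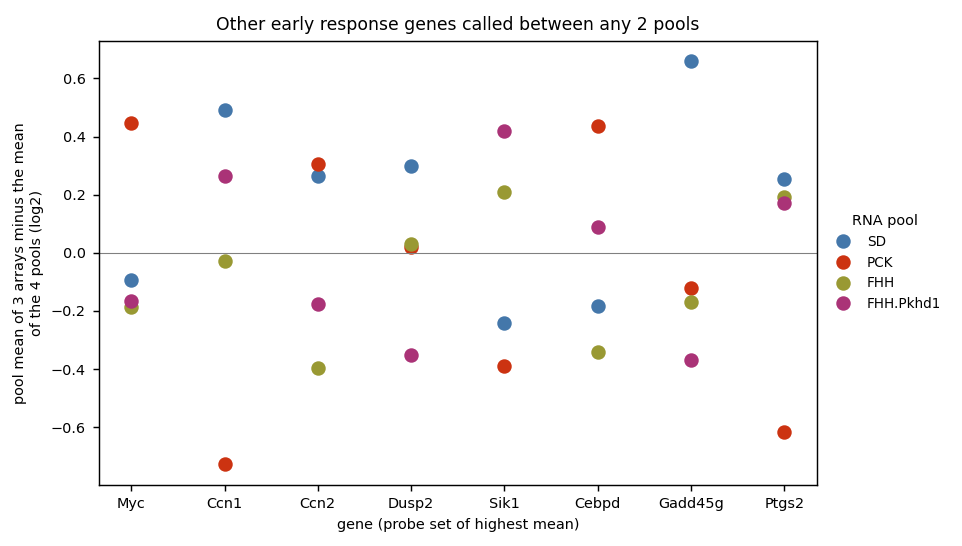
Pool mean of 3 arrays minus the mean of the 4 pools (log2, vertical axis) for the 8 other early response genes called between any 2 pools (horizontal axis). PCK is highest for Myc, Ccn2 and Cebpd and lowest for Ccn1, Sik1 and Ptgs2, and SD is highest for Ccn1, Dusp2, Gadd45g and Ptgs2.

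Lists of neighbouring stress responses were read the same way. Over the 7 comparisons, calls made up 1.9% to 6.91% of all tested probe sets. Of 15 heat shock genes tested, limma called 0 in each of the 7 comparisons, with 3 to 11 at an unadjusted p under 0.05 (33.5% to 57.6% of all tested probe sets), and the largest difference was that of the inducible chaperone Hspa1a, -0.56 ± 0.07 in both PCK and SD against FHH.Pkhd1 (limma adjusted p = 2.37e-05 and 3.04e-05). Of 18 genes of the ATF4 and unfolded protein response, Ddit4, an inhibitor of mTOR signalling, was higher in PCK (0.94 ± 0.05) and SD (1.20 ± 0.05) than in FHH.Pkhd1 and in SD than in FHH (0.76 ± 0.05), and the chaperone partner Sdf2l1 fell in PCK against FHH (-0.73 ± 0.05). Among 15 hypoxia genes, Egln3, an oxygen-sensing hydroxylase, was lower in PCK (-0.76 ± 0.04) and SD (-1.06 ± 0.04) than in FHH.Pkhd1 and in SD than in FHH (-0.88 ± 0.04). Ankrd37 fell in PCK against FHH (-0.70 ± 0.05) and the glycolytic regulator Pfkfb3 in SD against FHH.Pkhd1 (-0.67 ± 0.05). Of 12 NF-kB and inflammation genes limma called 0 in each comparison, with 4 to 9 at an unadjusted p under 0.05 (33.5% to 57.6% of all tested probe sets). Birc3, an inhibitor of cell death, at 0.54 ± 0.05 in PCK minus FHH.Pkhd1 and Nfkbiz at 0.52 ± 0.06 in PCK minus SD were among the largest differences. All calls named in this paragraph had limma adjusted p of at most 7.81e-07.

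Of 16 upstream kinases and factors, Creb1, which encodes CREB, was the only gene called between pools. It stood at 8.37 in SD against 7.24 in PCK, 7.42 in FHH and 7.63 in FHH.Pkhd1 (log2 means). Creb1 was lower in PCK than in SD (-1.13 ± 0.10, limma adjusted p = 5.6e-06) and higher in SD than in FHH (0.95 ± 0.10, limma adjusted p = 2.48e-05) and than in FHH.Pkhd1 (0.74 ± 0.10, limma adjusted p = 0.000117). Its interaction, -1.34 ± 0.15, was called, as was that of Elk1, an ETS partner of serum response factor (-0.72 ± 0.11). Of all tested probe sets, 3.49% were called in PCK minus SD, 3.72% in SD minus FHH, 6.16% in SD minus FHH.Pkhd1 and 6.44% in the interaction.

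By Pearson correlation over the 12 arrays with Fos 1375043_at, among 1063 genes whose pool means span 1.5-fold, the nearest were the complement regulator Cd55 (0.80), the phosphatase Ptprr (0.75) and Ikzf2 (0.73), followed by Tlcd4, Ttc39a, Lratd1, Ankrd6, Ifi44l, Trpv5 and Tro at 0.73 to 0.69. For Jun 1389528_s_at, chosen after its values were seen, they were Anp32a and Ang (both 0.94) and Mrln (0.93), and for Dusp1 1368147_at, chosen likewise, Kyat3, Ctss and Spp1 (each 0.94). Arrays of a pool share its RNA, so these correlations describe 4 pools and carry no test.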

How the data were processed

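Values were deposited by the authors on a log2 scale, a signal per probe set. The submitters' processing notes name RMA and Partek 6.2 without saying in what order they were applied. The 12 columns spanned 2.38 to 14.41, their medians lay between 6.41 and 6.46, and no further normalization was applied. Of 31099 probe sets, 57 controls were left out of the tests, and of the other 31042, 20826 carried 1 gene symbol, 436 several and 9780 none in the platform annotation, which can be old. Of those with 1 symbol, 20758 matched a gene record of the GRCr8 assembly, used for names alone.

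Limma 3.58.1 in R 4.3.3 fitted 1 mean per strain to all 12 arrays and 19359 probe sets (residual degrees of freedom 8, prior 3.77), with Benjamini-Hochberg adjustment over all of them in each of 7 comparisons. The number of arrays limits the precision. In a test on simulated data (PCK minus SD, 18976 probe sets), 98% of those changed 1.75-fold, 98% changed 2-fold and 100% changed 4-fold were called. Of those changed 1.25-fold 0% were called, with 0 calls among the unchanged. A 1.25-fold change lies below the 1.5-fold limit of a call, so that 0% follows from the limit. The limit also guards the unchanged, and the simulated spread was that between repeat arrays. The 10 genes, the lists and the tests were chosen with earlier results of these data known. Other genes were named by rule: the 4 largest calls of a list in a comparison, or the 2 largest values where none was called. Srf stands on both the early response and the upstream list, and Vcam1 on both the inflammation and the injury list. Probe sets of 1 gene were compared by the difference within each array with exact permutation tests. Alternatives covered the filter, the probe set rule, the fold limit, how variances were moderated, which pools were fitted, normalization, the replicate block and each array left out. Figures were drawn with matplotlib 3.10.9.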

Additional observations from a re-analysis of the deposited data

Results flagged for a closer look

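The Jun probe sets 1374404_at and 1389528_s_at were marked for a closer look because their difference in PCK minus SD was not that in FHH.Pkhd1 minus FHH. PCK and the outbred SD stock are not a congenic pair, so PCK minus SD can hold strain differences beyond the mutant segment. Their interactions were -1.25 and -1.32 (log2, limma, called), from -0.31 and -0.41 in PCK minus SD and 0.94 and 0.91 in FHH.Pkhd1 minus FHH. The third Jun probe set, 1369788_s_at, gave -0.33.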

How the results depend on the processing

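Counts of called probe sets kept to 1.5 times the reported count with trended variances, with each array centred on its median, with only the compared pools fitted, with quantile normalization and with the replicate number as a block. With the replicate block there were 0 calls in PCK minus SD and in SD minus FHH.Pkhd1, 1 in SD minus FHH and in PCK minus FHH, 2 in FHH.Pkhd1 minus FHH and in the interaction, and 3 between PCK and FHH.Pkhd1, the same counts as without it. Same-numbered arrays of different pools had deviations that correlated from -0.33 to 0.35, and 6 of 12 arrays correlated best with their own number, so the numbers were not taken as pairs. With no fold limit there were 6 in FHH.Pkhd1 minus FHH and in the interaction, 8 in PCK minus SD, 10 between PCK and FHH.Pkhd1, 7 in SD minus FHH, 9 in PCK minus FHH and 4 in SD minus FHH.Pkhd1. A limit of 2-fold left 0 calls in FHH.Pkhd1 minus FHH, in SD minus FHH and between PCK and FHH.Pkhd1. With no filter PCK minus FHH gave 2 calls and PCK minus FHH.Pkhd1 gave 4, Atf3 being the added call in each. With a filter at the 60th percentile PCK minus FHH gave 0, since Dusp1 1368147_at was then not tested. With the probe set of highest mean per gene, the interaction, FHH.Pkhd1 minus FHH and PCK against FHH.Pkhd1 gave 1 gene each, Jun, and PCK minus FHH gave 0. With the mean of a gene's probe sets, FHH.Pkhd1 minus FHH and the interaction gave 1 gene each, and PCK minus FHH.Pkhd1 and SD minus FHH gave 0. Leaving out each array in turn gave 0 to 1 calls in PCK minus SD (Dusp1 1368147_at at 0.61 without SD replicate 1), 1 to 2 in SD minus FHH (the same probe set at 0.63 without SD replicate 3 and 0.59 without FHH replicate 1), 2 to 3 in PCK minus FHH.Pkhd1 and in the interaction (Fos 1375043_at at 0.65 without PCK replicate 1), and the reported count in the other 3. The signal of Fosb, Atf3 and the dimmer Fos probe set, below the detection level, limits what can be said of them. For the FHH.Pkhd1 minus FHH gaps of Jun 1374404_at and 1389528_s_at to 1369788_s_at, a check chosen after seeing the data, the lowest value with an array left out was 0.81, and the other gaps between Jun probe sets were not rerun.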
